A study of Drosophila melanogaster with 8 samples.

Results

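SREBP, its processing factors and the enzymes that make and activate fatty acids were followed in Drosophila L57 cells under juvenile hormone III (JH III). The group consists of 10 genes (SREBP, SCAP, S1P, FASN1, ACC, ATPCL, AcCoAS, Acsl, Desat1 and bgm) out of the 10844 genes that the array annotation links to a probe set with 1 gene symbol. Every probe set carrying 1 of these symbols was used, 12 in all. L57 is a cultured line of Drosophila melanogaster, and its total RNA was measured on 8 arrays in 4 groups of 2: DMSO, the solvent control, which the series text places at 0 h, and 1 µM JH III for 3, 6 or 12 h. The comparisons with DMSO share the same 2 DMSO arrays. All groups were the same cell line in the same serum-containing medium, no genotype or allele was given, and the DMSO arrays were not time-matched to the exposures. JH III is a sesquiterpenoid that holds insect larvae in the larval state and acts in adult reproduction. Embryos are named in the source label of 1 DMSO array, whereas the growth protocols describe cultured cells.

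SREBP is a transcription factor that is made as a membrane protein of the endoplasmic reticulum. SCAP escorts it to the Golgi, where the proteases S1P and S2P release the part that enters the nucleus and turns on lipogenic genes. In flies this pathway responds to phosphatidylethanolamine rather than to sterols, and its targets build fatty acids: ATPCL and AcCoAS supply acetyl-CoA, ACC makes malonyl-CoA, FASN1 assembles the fatty acid chain, Desat1 adds a double bond, and Acsl and bgm attach coenzyme A to finished fatty acids.

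The values were the authors' MAS5 signal, a linear intensity per probe set, and they were analysed as log2(signal + 25). The trimmed mean was 500.08 to 500.1 on 7 arrays and 376 over the readable probe sets of JH III 6 h replicate 2, on which the 6 h values partly rest. Over probe sets readable on all 8 arrays the median signal was 86.0 on that array, against 81.4 on the other 6 h array. On JH III 6 h replicate 2, 3151 probe sets (22.5% of the table) were unreadable and treated as missing, among them those of Acsl, AcCoAS and bgm, which therefore have 1 array at 6 h. No label states whether replicates were separate cultures, so p-values measure the spread between these arrays, which may be technical, and the number of arrays limits the precision. Over the 8380 probe sets tested the median log2 change was 0.03, 0.05 and 0.00 for 3, 6 and 12 h, and -0.13, -0.10 and -0.12 after each array was centred on its median. With that centring the split of all calls was 507 higher and 1413 lower at 3 h (888 and 684 on the authors' scale), 349 and 1141 at 6 h (613 and 520) and 181 and 708 at 12 h (280 and 216). Of 16 hemocyte markers on the array 11 passed the filter on dim probe sets. For the other cell types it was 4 of 7 fat body, 2 of 3 oenocyte, 1 of 3 muscle and 0 of 4 neuronal markers.

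Fatty acid synthase and the acyl-CoA synthetase Acsl passed the test as higher than DMSO after 3 h of JH III. SREBP, ACC and AcCoAS also passed at 6 h, but no member passed the test of 6 h against 3 h. At 12 h only SREBP passed the test against DMSO, and FASN1 lay within 1.09-fold of the DMSO level. Of the other settings tried, 7 of 18 lost the ACC call at 6 h and 11 of 16 lost the AcCoAS call at 6 h. The SREBP call at 12 h was lost in 11 of 18. Of the 12 probe sets 10, covering 9 genes, passed the filter and were tested with limma, with Benjamini-Hochberg adjustment over all probe sets tested and a threshold of 0.05. S1P and the dimmer ACC probe set stayed below the filter, which lay at a mean signal of 61.5.

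**Figure D1:**
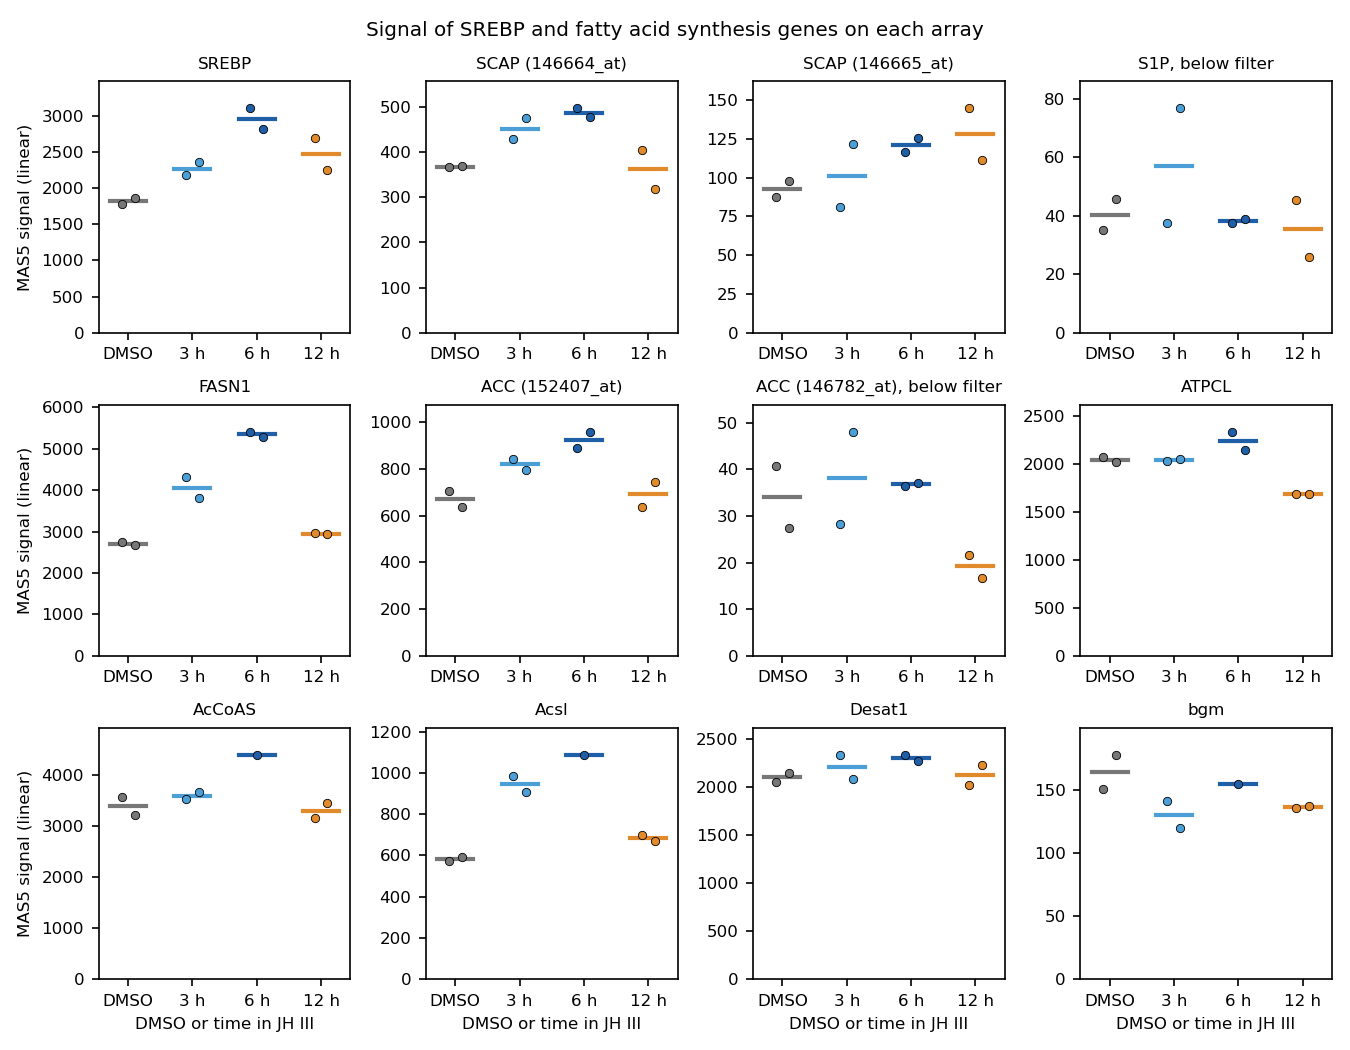
MAS5 signal (linear scale, axis from 0) of the 12 probe sets under DMSO and at the 3 JH III times. Points are single arrays and horizontal lines are group means; Acsl, AcCoAS and bgm have 1 readable array at 6 h. Of the JH III times, the means of FASN1, Acsl and ACC are highest at 6 h and closest to DMSO at 12 h. No member's difference between 3 and 6 h passed the limma test. Both 12 h arrays of SREBP, Acsl and FASN1 lie above both DMSO arrays, and those of ACC overlap them.

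At 3 h, 2 of the 10 probe sets tested rose, FASN1 and Acsl, and 0 fell by limma. Over all probe sets tested 10.6% rose and 8.16% fell at this time. At an unadjusted p under 0.05, 4 of the 10 were higher and 0 were lower. The members' median change was 0.18 on the log2 scale (0.02 with median centring), against 0.03 for all probe sets tested (-0.13 with median centring). On 5 of the 10 both JH III arrays lay above both DMSO arrays, as they did for 34.6% of all probe sets tested, and on 1, bgm, both lay below, against 27.8% of all. The member count stayed at 2 or 3 whichever array was left out.

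At 6 h, 5 of the 10 rose, SREBP, FASN1, ACC, AcCoAS and Acsl, and 0 fell by limma, against 7.32% rising and 6.21% falling over all probe sets tested. At an unadjusted p under 0.05, 6 were higher and 0 were lower. The members' median change was 0.38 (0.23 with median centring), against 0.05 for all probe sets (-0.10 with median centring). The readable 6 h arrays lay above both DMSO arrays for 9 of the 10, against 37.1% of all probe sets tested, bgm being the exception. The count fell to 3 without DMSO replicate 1, DMSO replicate 2 or JH III 6 h replicate 2. It was 2 without JH III 6 h replicate 1, where Acsl, AcCoAS and bgm had no 6 h value left.

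At 12 h, 1 of the 10 rose, SREBP, and 0 fell by limma, against 3.34% rising and 2.58% falling over all probe sets tested. At an unadjusted p under 0.05, 1 was higher and 1, ATPCL, was lower. The members' median was 0.03 (-0.10 with median centring), against 0.00 for all probe sets (-0.12 with median centring). The 12 h arrays lay above both DMSO arrays for 4 of the 10 and below both for 2, against 26.1% and 25.6% of all probe sets tested. The count dropped to 0 without DMSO replicate 1, DMSO replicate 2, either 3 h array or JH III 12 h replicate 1.

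**Figure D2:**
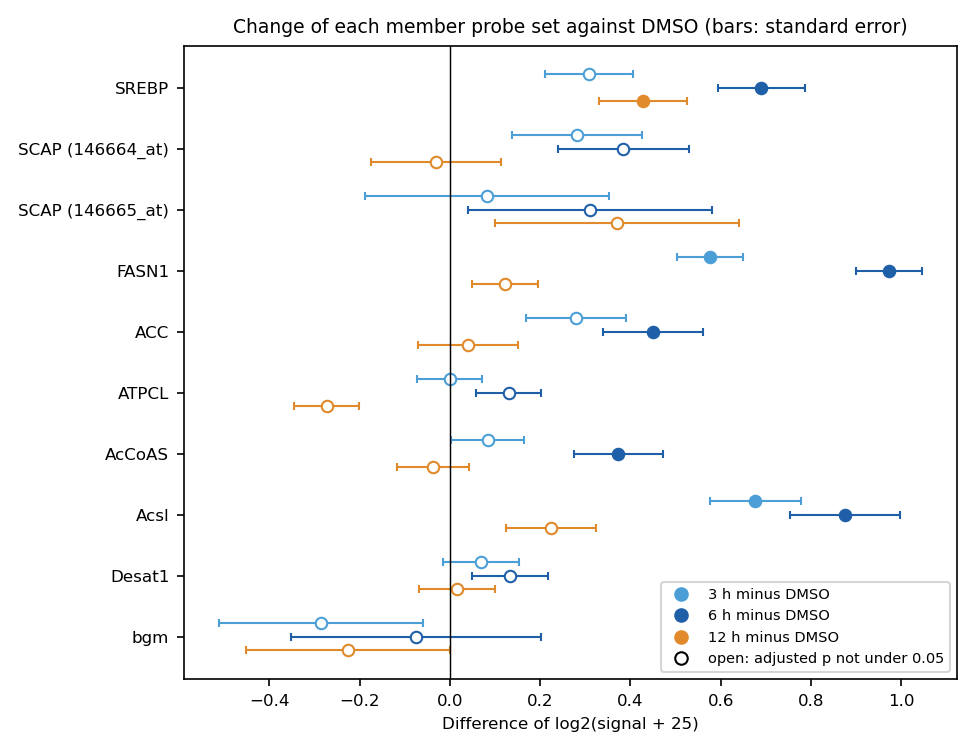
Change of each of the 10 probe sets tested against DMSO, as a difference of log2(signal + 25) (horizontal axis) with its standard error from limma, at 3, 6 and 12 h. Filled points have an adjusted p under 0.05. FASN1 and Acsl stand to the right at 3 and 6 h, and SREBP, ACC and AcCoAS are filled at 6 h.

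SREBP, the transcription factor of the pathway, read 1786 and 1866 under DMSO. Its signal was 2176 and 2360.1 after 3 h, 3105 and 2824 after 6 h and 2695 and 2255 after 12 h. All 6 JH III arrays lay above both DMSO arrays, and the 6 h arrays were the highest of all. Against DMSO the change was 0.31 ± 0.10 on the log2 scale at 3 h (standard error; adjusted p = 0.0563 by limma), which missed the threshold. SREBP rose 1.61-fold at 6 h (0.69 ± 0.10, adjusted p = 0.00285), a fold on the log2(signal + 25) scale as are all folds given. This call held in each of the 18 other settings tried, with changes of 0.53 to 0.91. At 12 h SREBP rose 1.35-fold (0.43 ± 0.10, adjusted p = 0.0357). Of the 18 other settings 11 lost this call, among them quantile normalization, no filter, no variance trend and only the arrays compared. That call was lost without either DMSO array, either 3 h array or JH III 12 h replicate 1 (adjusted p = 0.0586 to 0.193), with a replicate block (0.0549) and with median centring (0.30, adjusted p = 0.0954).

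SCAP, the escort of SREBP, was measured by probe sets of different brightness. The brighter gave 367 and 368 under DMSO, 429 and 476 after 3 h, 497 and 478 after 6 h and 405 and 318 after 12 h. The 3 h and 6 h arrays all lay above DMSO, and the 12 h arrays fell on either side of it. Its change was 0.28 ± 0.14 at 3 h, 0.38 ± 0.14 at 6 h (adjusted p = 0.114) and -0.03 ± 0.14 at 12 h, so none of these passed. The dimmer SCAP probe set ranged from 80.7 to 145 over the 8 arrays and gave 0.08 ± 0.27, 0.31 ± 0.27 and 0.37 ± 0.27. None of the changes on the dimmer probe set passed (adjusted p = 0.471 to 0.874). S1P, the first protease to cut SREBP, lay between 25.8 and 76.6 on all 8 arrays, below the filter, and was not tested.

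FASN1, the cytosolic fatty acid synthase, showed the largest change of the members at 6 h. Its signal was 2747 and 2677 under DMSO, 4318 and 3808 after 3 h, 5414 and 5278 after 6 h and 2967 and 2938 after 12 h. Neither 3 h nor 6 h overlapped DMSO, and the 12 h arrays lay just above it. FASN1 rose 1.49-fold at 3 h (0.58 ± 0.07, adjusted p = 0.00123 by limma) and 1.96-fold at 6 h (0.97 ± 0.07, adjusted p = 0.000269). Both calls held in each of the 18 other settings, with changes of 0.41 to 0.67 at 3 h and 0.81 to 1.17 at 6 h. At 12 h the change was 0.12 ± 0.07 (adjusted p = 0.377), and -0.00438 with median centring.

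ACC, the acetyl-CoA carboxylase that makes malonyl-CoA for FASN1, had a signal of 704 and 636 under DMSO on its brighter probe set. It was 842 and 795 after 3 h, 889 and 959 after 6 h and 638 and 744 after 12 h. The 3 h and 6 h arrays lay above DMSO and the 12 h arrays overlapped it. ACC gave 0.28 ± 0.11 at 3 h (adjusted p = 0.114) and rose 1.37-fold at 6 h (0.45 ± 0.11, adjusted p = 0.0293). Of the 18 other settings 7 lost the 6 h call, among them quantile normalization and no variance trend. The 6 h call was lost without either DMSO array or either 6 h array (adjusted p = 0.069 to 0.182), and with median centring (0.28, adjusted p = 0.135). The dimmer ACC probe set, below the filter, read 40.7 and 27.4 under DMSO, 28.2 and 48.1 after 3 h, 36.5 and 37.0 after 6 h, and 21.6 and 16.8 after 12 h.

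Of the suppliers of acetyl-CoA, 1 passed at 6 h. AcCoAS, acetyl-CoA synthetase, had 3576 and 3212 under DMSO, 3526 and 3661 after 3 h, 4397 on the 1 readable array after 6 h and 3161 and 3448 after 12 h. Only the 6 h array lay apart from DMSO. AcCoAS rose 1.30-fold at 6 h (0.37 ± 0.10, adjusted p = 0.0422), with an error that takes its spread from the other groups. Of the 16 other settings that gave a value, 11 lost this call. Among them were quantile normalization, no filter, no variance trend and only the arrays compared. The call was lost without either DMSO array, either 3 h array or JH III 6 h replicate 2, where AcCoAS had no readable value (adjusted p = 0.0502 to 0.200), with a replicate block (0.0786) and with median centring (0.24, adjusted p = 0.194).

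ATPCL, the citrate lyase that makes cytosolic acetyl-CoA, had 2075 and 2020.2 under DMSO, 2038 and 2057 after 3 h, 2341 and 2149 after 6 h and 1689 and 1691 after 12 h. The 12 h arrays were the lowest of the 8. Its change was 0.00 ± 0.07 at 3 h and 0.13 ± 0.07 at 6 h (adjusted p = 0.275). At 12 h it was -0.27 ± 0.07 (adjusted p = 0.0586), and -0.40 with median centring, which passed (adjusted p = 0.0197).

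Acsl, a long-chain acyl-CoA synthetase, had 572 and 592 under DMSO, 987 and 906 after 3 h, 1088 on the 1 readable array after 6 h and 698 and 669 after 12 h. Every readable JH III array lay above both DMSO arrays, with the 12 h arrays closest to them. Acsl rose 1.60-fold at 3 h (0.68 ± 0.10, adjusted p = 0.00319) and was raised 1.83-fold at 6 h (0.88 ± 0.12, adjusted p = 0.00373). These calls held in each of the 17 and 16 other settings in which Acsl had a value. At 12 h the change was 0.22 ± 0.10 (adjusted p = 0.24).

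bgm (bubblegum), a very-long-chain acyl-CoA synthetase, passed no test. Its signal was 151 and 178 under DMSO, 141 and 119.5 after 3 h, 154 on the readable 6 h array and 136 and 137 after 12 h. The 3 h and 12 h arrays lay below both DMSO arrays, and the changes of -0.29 ± 0.23, -0.08 ± 0.28 and -0.23 ± 0.23 did not pass.

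Desat1, the acyl-CoA desaturase that makes monounsaturated fatty acids, ranged from 2018 to 2333 over the 8 arrays. It gave 0.07 ± 0.08, 0.13 ± 0.08 and 0.02 ± 0.08 at 3, 6 and 12 h, and none of these passed (adjusted p = 0.342 to 0.942).

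Differences between exposure times set the JH III groups against each other, and the DMSO arrays enter them only through the shared estimate of spread. From 3 to 6 h all 10 changes were positive, with a median of 0.20 against 0.00 for all probe sets tested, but 0 of 10 passed by limma (3 were higher at an unadjusted p under 0.05), where 0.0597% of all probe sets did. On 8 of the 10 the readable 6 h arrays lay above both 3 h arrays, against 27.4% of all. At 12 h against 6 h, 5 of the 10 were lower, FASN1, Acsl, ATPCL, AcCoAS and ACC, against 7.37% of all probe sets tested that fell. The 12 h arrays lay below the readable 6 h arrays for 9 of the 10 members, against 37.2% of all. On the log2 scale FASN1 fell by 0.85 ± 0.07 (adjusted p = 0.000163), Acsl fell by 0.65 ± 0.12 (adjusted p = 0.0108) and ATPCL fell by 0.40 ± 0.07 (adjusted p = 0.00685). AcCoAS and ACC each fell by 0.41, with errors of 0.10 and 0.11 (adjusted p = 0.0296 and 0.0402). Of the other settings, 8 of 16 lost the AcCoAS call and 13 of 18 lost the ACC call. Both were lost with median centring (adjusted p = 0.0507 and 0.0706 by limma), no filter, no variance trend and only the arrays compared. Quantile normalization lost the ACC call as well. The FASN1 call held in each of the 18 other settings, the Acsl call was lost with quantile normalization (0.0753) and the ATPCL call without the variance trend (0.0536). The AcCoAS call was lost without either 3 h array or JH III 12 h replicate 1 (0.0526 to 0.0773) and with a replicate block (0.0582). The ACC call was lost without any 1 array except JH III 12 h replicate 2 (0.0605 to 0.148) and with a replicate block (0.063). The count was 3 without either 3 h array, with median centring and with a replicate block, and 2 without JH III 6 h replicate 1, where Acsl and AcCoAS had no 6 h value. SREBP gave -0.26 ± 0.10 (adjusted p = 0.108), which missed the threshold.

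At 12 h against 3 h, 3 of the 10 fell, FASN1, Acsl and ATPCL, against 9.02% of all probe sets tested. The 12 h arrays lay below both 3 h arrays for 6 of the 10, against 34.2% of all. FASN1 fell by 0.45 ± 0.07 (adjusted p = 0.00387) and Acsl fell by 0.45 ± 0.10 (adjusted p = 0.0196). ATPCL fell by 0.27 ± 0.07 (adjusted p = 0.0323). The FASN1 call held in each of the 18 other settings. The Acsl call was lost without either 3 h array or JH III 12 h replicate 2 (adjusted p = 0.0563 to 0.127). The ATPCL call was lost without any 1 of the DMSO, 3 h or 12 h arrays (0.0626 to 0.135), and the count was 1 without either 3 h array or JH III 12 h replicate 2. With median centring the ATPCL call was lost too (-0.24, adjusted p = 0.0954 by limma). The same held with quantile normalization, without the variance trend and with only the arrays compared. Quantile normalization and the fit without the variance trend also lost the Acsl call. SREBP was 0.12 ± 0.10 higher at 12 h than at 3 h, which did not pass (adjusted p = 0.454).

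**Figure D3:**
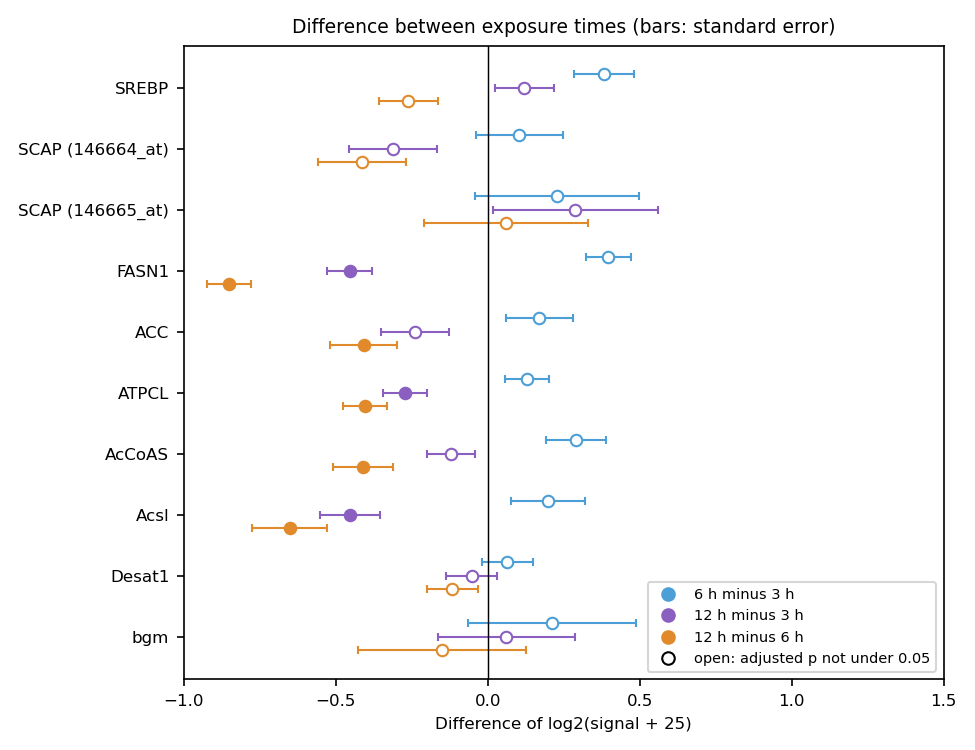
Differences between exposure times for the 10 probe sets tested, as differences of log2(signal + 25) (horizontal axis) with standard errors. Filled points have an adjusted p under 0.05. The 6 h minus 3 h points are all open and right of 0, and 5 of the 12 h minus 6 h points are filled and left of 0.

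Markers of other cell types and array controls were set beside the members. Of the 11 hemocyte markers tested, 6 rose and 1 fell at 3 h by limma, with a median of 0.31. At 6 h 3 rose (5 at an unadjusted p under 0.05), with a median of 0.36. At 12 h 0 passed (1 higher and 2 lower at an unadjusted p under 0.05) and the median was -0.06. Of all probe sets tested 10.6%, 7.32% and 3.34% rose and 8.16%, 6.21% and 2.58% fell at 3, 6 and 12 h. Their medians were 0.03, 0.05 and 0.00. The summed signal of the 13 markers readable on all arrays was 27944 to 28578 under DMSO, 30037 to 31101 at 3 h, 30501 to 30848 at 6 h and 30136 to 30869 at 12 h. Most of the DMSO sum came from 1 marker, SPARC, which read 18257 on replicate 1 (17709 on replicate 2). SPARC was the marker that fell at 3 h, and its 12 h signal exceeded DMSO (21564 on replicate 1, 20091 on replicate 2). In the test of 12 h against 3 h, 7 of the 11 markers fell by limma, against 9.02% of all probe sets tested, whereas SPARC rose. The raised 12 h sums therefore do not describe the other markers. Of the fat body markers, from the main lipogenic tissue of the fly, 5 were readable on all arrays, with a summed signal of 358 and 382 under DMSO, 498 and 385 after 3 h, 537 and 496 after 6 h, and 489 and 619 after 12 h. All 6 JH III sums lay above both DMSO sums. The median change of the 4 fat body markers tested was -0.07, -0.11 and 0.31 at 3, 6 and 12 h, so the sums and the medians differed in direction at 3 and 6 h. By limma 0 of these 4 passed at any time (1 higher and 1 lower at an unadjusted p under 0.05 at 6 h, 0 at 3 and 12 h). The log2 ratio of 3' to 5' signal of the actin control, a sign of RNA integrity, lay 0.19, 0.19 and 0.21 above DMSO at 3, 6 and 12 h, and that of eIF4A 0.29, 0.067 and 0.17 above. For GAPDH the same differences were -0.02, 0.06 and 0.01. The log2 signal of the hybridization controls lay 0.14, 0.04 and 0.53 above DMSO at the same times. Their part in the members' changes was not tested. In bulk RNA, fewer cells of a type and less RNA per cell cannot be told apart.

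The rest of the machinery that moves and cuts SREBP held genes of either direction. Of 7 genes of SREBP trafficking and processing tested, 1 rose and 2 fell at 3 h by limma. At 6 h 1 rose and 2 fell, and at 12 h 2 fell. Of all probe sets tested 10.6%, 7.32% and 3.34% rose and 8.16%, 6.21% and 2.58% fell at 3, 6 and 12 h. The risers were different genes, Sumo at 3 h and Sec24AB at 6 h, the latter from 1 readable array. The Sumo call was lost without either DMSO array or either 3 h array. The Sec24AB call was lost without either DMSO array, either 3 h array or JH III 6 h replicate 2. Without JH III 6 h replicate 1, Sec24AB had no 6 h value. The number that fell at 6 h was 0 without DMSO replicate 2 or JH III 6 h replicate 1, and at 12 h it was 0 or 1 whichever array was left out. S2P, the protease that makes the second cut in SREBP, had 1574 and 1562 under DMSO, 1130.3 and 1023 after 3 h, 1226 and 1215 after 6 h and 1212 and 1230.04 after 12 h. All 6 JH III arrays lay below both DMSO arrays. S2P fell by 0.53 ± 0.08 at 3 h (adjusted p = 0.00267), fell by 0.35 ± 0.08 at 6 h (adjusted p = 0.0217) and fell by 0.35 ± 0.08 at 12 h (adjusted p = 0.0372). Of the 18 other settings 17 kept the call at 3 h, 12 at 6 h and 7 at 12 h. Sec13, a subunit of the COPII coat that carries cargo out of the endoplasmic reticulum, fell by 0.57 ± 0.07 at 3 h (adjusted p = 0.002) and fell by 0.56 ± 0.09 at 6 h, from 1 readable array (adjusted p = 0.00687, and 0.0754 at most in other settings).

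The other genes of fatty acid synthesis, elongation and desaturation included several that fell. Of 20 tested, 0 rose and 5 fell at 3 h, 1 rose and 3 fell at 6 h, and 1 rose and 0 fell at 12 h by limma; at an unadjusted p under 0.05, 2 were higher and 6 lower at 3 h, 1 higher and 6 lower at 6 h, and 2 higher and 3 lower at 12 h. Without DMSO replicate 1, DMSO replicate 2 or JH III 3 h replicate 1, 2 fell at 3 h, and 3 without JH III 3 h replicate 2. At 6 h 0 fell without DMSO replicate 2, and 1 without DMSO replicate 1 or JH III 6 h replicate 1. The median was -0.15, 0.06 and 0.05, against 0.03, 0.05 and 0.00 for all probe sets tested. Of all probe sets tested 8.16%, 6.21% and 2.58% fell and 10.6%, 7.32% and 3.34% rose at 3, 6 and 12 h. beg, the malonyl-CoA transacylase of mitochondrial fatty acid synthesis, fell by 0.70 ± 0.09 at 3 h (adjusted p = 0.00153), and CG12170, a relative of the ketoacyl synthase of that pathway, fell by 0.74 ± 0.11 (adjusted p = 0.00245). CG12170 read 1437 and 1482 under DMSO, 776 and 958 after 3 h, 982 and 975 after 6 h, and 2007 and 2291 after 12 h. It was thus below DMSO at 3 and 6 h and above it at 12 h, where it rose by 0.55 ± 0.11 (adjusted p = 0.0246; lost without either DMSO array or JH III 12 h replicate 2). The 3 h calls of beg and CG12170 held in each of the 17 and 18 other settings that gave a value. Hacd2, a hydroxyacyl-CoA dehydratase of chain elongation, fell by 0.82 ± 0.15 at 6 h (adjusted p = 0.00971; lost without DMSO replicate 2).

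pdgy, another acyl-CoA synthetase, had 600.5 and 572 at 3 h and 754 and 763 at 6 h, against 360.1 and 339 under DMSO, with no overlap. It rose 1.63-fold at 3 h (0.71 ± 0.11, adjusted p = 0.00267) and was raised 2.09-fold at 6 h (1.07 ± 0.11, adjusted p = 0.000863), and was the 1 gene to rise among 11 other acyl-CoA synthetases and fatty acid carriers tested at either time, where 10.6% and 7.32% of all probe sets rose. Of 8 lipid droplet and lipolysis genes 3 rose at 3 h and 2 at 6 h, set against the same shares. The 3 h count was 2 without either DMSO array or either 3 h array, and the 6 h count was 1 without DMSO replicate 2 or JH III 6 h replicate 1. Lsd-2, a perilipin that coats lipid droplets, had 1355 and 1415 at 3 h and 1586 and 1739 at 6 h, against 867 and 837 under DMSO. It rose by 0.69 ± 0.09 (adjusted p = 0.00124) and by 0.94 ± 0.09 (adjusted p = 0.000569), and both calls held in each of the 18 other settings. The pdgy call held in all of them at 6 h and in 17 at 3 h.

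Among 20 glycerolipid and phospholipid synthesis genes 3 rose at 3 h and 4 at 6 h, against 10.6% and 7.32% of all probe sets tested. Pect, the rate-limiting enzyme of phosphatidylethanolamine synthesis, rose 1.33-fold at 3 h (0.41 ± 0.09, adjusted p = 0.0175, up to 0.121 in other settings) and 1.82-fold at 6 h (0.86 ± 0.11, adjusted p = 0.00275, 1 readable array). nes, a lysophospholipid acyltransferase, rose by 0.44 ± 0.10 at 6 h (adjusted p = 0.0198, up to 0.13 in other settings). Without DMSO replicate 1, DMSO replicate 2 or JH III 3 h replicate 1 0 of the 20 rose at 3 h, and without JH III 3 h replicate 2, 1 rose. The count at 6 h was 1 without DMSO replicate 1, 2 without DMSO replicate 2 and 0 without JH III 6 h replicate 1. The list's median was 0.16 and 0.22 at 3 and 6 h, against 0.03 and 0.05 for all probe sets tested.

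Fatty acid oxidation genes fell in 6 of 18 at 3 h and in 3 of 18 at 6 h by limma, and 0 rose at either time (at an unadjusted p under 0.05, 10 and 8 were lower and 0 higher). Of all probe sets tested 8.16% fell and 10.6% rose at 3 h, and 6.21% fell and 7.32% rose at 6 h. The 3 h count was 3 without either DMSO array, and the 6 h count was 1 without either DMSO array, 0 without JH III 6 h replicate 1, and 7 without either 12 h array. wal, a subunit of the electron transfer flavoprotein, fell by 0.66 ± 0.08 at 3 h (adjusted p = 0.000789), and CG4860, an acyl-CoA dehydrogenase family gene, fell by 0.80 ± 0.11 at 3 h and fell by 1.02 ± 0.14 at 6 h, from 1 readable array (adjusted p = 0.0028 and 0.00352). These 3 calls held in each of the other settings that gave a value. The median of the list was -0.26, -0.17 and -0.08 at 3, 6 and 12 h, against 0.03, 0.05 and 0.00 for all probe sets tested.

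The supply of NADPH and citrate was mixed. For this list and the sphingolipid genes below, the shares of all probe sets that rose and fell were 10.6% and 8.16% at 3 h. At 6 h these shares were 7.32% and 6.21%. Of 8 genes 1 rose and 4 fell at 3 h, and 1 rose and 3 fell at 6 h by limma; 1 fell at 3 h without either DMSO array or JH III 3 h replicate 1, 2 without JH III 3 h replicate 2, and 1 fell at 6 h without either DMSO array, either 3 h array or JH III 6 h replicate 1. Men-b, a malic enzyme that yields NADPH, had 2394 and 2652 at 3 h and 2052 and 1994 at 6 h, against 1645 and 1568 under DMSO. It rose by 0.64 ± 0.08 (adjusted p = 0.00108) and by 0.33 ± 0.08 (adjusted p = 0.0253, up to 0.279 in other settings). PCB, pyruvate carboxylase, which feeds citrate formation in the mitochondrion, had 511 and 401 at 3 h and 392.4 and 402 at 6 h, against 1966 and 2049 under DMSO. It fell by 2.09 ± 0.19 at 3 h (adjusted p = 0.000368) and fell by 2.27 ± 0.19 at 6 h (adjusted p = 0.000404), a larger change than in any of the members. Among 10 sphingolipid genes 1 rose and 1 fell at 3 h, the riser being the ceramide synthase gene schlank (0.53 ± 0.10, adjusted p = 0.00701, lost without DMSO replicate 2 or JH III 3 h replicate 2). Kdsr, the ketosphinganine reductase gene, fell by 0.47 ± 0.10 (adjusted p = 0.0122), a call lost without either DMSO array or either 3 h array (0.0505 to 0.0966).

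Regulators of lipid and nutrient responses rose in 6 of 21 at 3 h and fell in 1, and rose in 5 at 6 h. Of all probe sets tested 10.6% rose and 8.16% fell at 3 h, and 7.32% rose at 6 h. The medians of the list were 0.33 and 0.23, against 0.03 and 0.05 for all probe sets tested. The 1 that fell, the deacetylase gene Sirt1 (-0.98 ± 0.20, adjusted p = 0.0125), was lost without DMSO replicate 1 or JH III 3 h replicate 1 (0.0839 and 0.087). The number that rose at 3 h was 1 to 3 without either DMSO array or either 3 h array. At 6 h it was 1 or 2 without either DMSO array or JH III 6 h replicate 1, and 3 without either 3 h array. Lk6, a kinase of the translation initiation factor eIF4E, rose by 0.58 ± 0.09 at 3 h and by 0.75 ± 0.09 at 6 h (adjusted p = 0.00229 and 0.00127), and both calls held in each of the 18 other settings. Hnf4, a nuclear receptor that drives lipid use in flies, rose by 0.84 ± 0.15 at 6 h (adjusted p = 0.00865, 0.0663 without DMSO replicate 2).

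**Figure D4:**
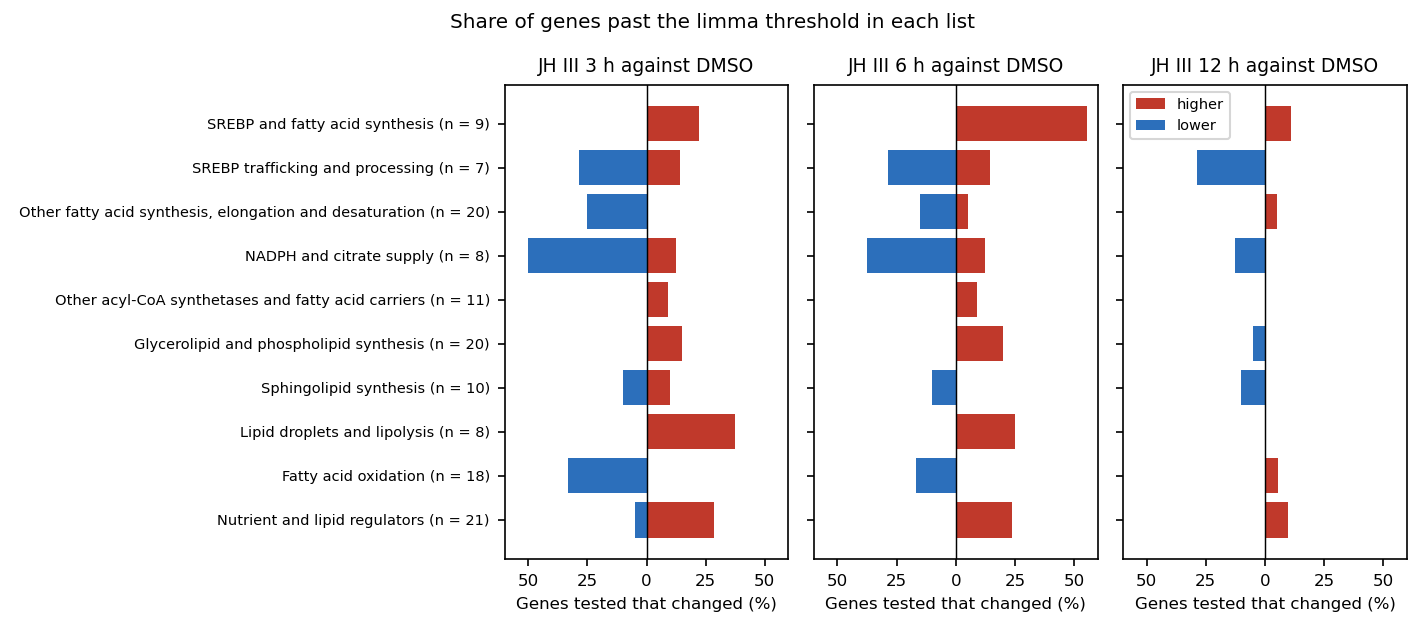
Share of the genes tested in each list (rows, n in brackets) that passed the limma threshold as higher (right) or lower (left) than DMSO at 3, 6 and 12 h. The horizontal axis is in percent of the genes tested. The SREBP and fatty acid synthesis genes reach 5 of 9 at 6 h with none lower, while fatty acid oxidation has only lower genes at 3 and 6 h. Over all probe sets tested 10.6%, 7.32% and 3.34% were higher and 8.16%, 6.21% and 2.58% lower at 3, 6 and 12 h.

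The members were compared with one another and with other genes by Pearson's correlation of log2(signal + 25) over the arrays, as a description of likeness only, since the arrays fall into groups and share a scale. Acsl was most like FASN1 among the members (r = 0.973 over 7 arrays), followed by ACC (0.933 over 8 arrays) and the brighter SCAP probe set (0.846). SREBP itself correlated with FASN1 at 0.745, and bgm at -0.202. Among the 5125 other probe sets with 1 gene symbol that were tested and readable on all 8 arrays, the 5 most like FASN1 were those of CG7737 (0.991), CG31098 (0.986), Atg13 (0.978), Hers (0.977) and pdgy (0.972). Atg13 belongs to the complex that starts autophagy. The 5 most like SREBP were cad (0.968), CG6770 (0.965), Drat (0.960), CG31342 (0.945) and nolo (0.932), a set that shares no gene with that of FASN1. The cad probe set read 18.8 and 26.9 under DMSO, below the filter level of 61.5, and passed the filter through its JH III arrays (67.2 to 146), so its rank rests on a probe set that had to differ.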

How the data were processed

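Total RNA of L57 cells was labelled with biotin and hybridised to 8 Affymetrix arrays. Per the submitters' processing notes, the authors made the deposited signal intensity values with MAS5 (version not given in the sources used here), and background correction could not be redone from them. The table held 14010 probe sets, of which 44 array controls were left out. On JH III 6 h replicate 2 the unreadable stretches held zeros and 5 impossible values. Values were taken as log2(signal + 25), and the 5586 probe sets whose mean lay below the 40th percentile were set aside, leaving 8380. Of the 13966 probe sets other than controls, 12443 had 1 gene symbol, 327 several and 1196 none in the array annotation. Symbols were updated through a RefSeq gene table, and probes were not realigned.

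The 4 groups were fitted together with limma 3.58.1, run in R 4.3.3, using an intensity-dependent variance prior and two-sided tests, with Benjamini-Hochberg adjustment over the 8380 probe sets. The fit was tested on simulated data. The members, the lists, the naming rule and the settings were chosen with earlier results of these data known. Other lists entered with the brightest probe set of each gene, and 6 misassigned entries were removed for what the genes are. The 3 genes with the smallest adjusted p past the threshold in each list could be named. Arrays with the same replicate number did not deviate together from their group means (correlations of -0.0469 to 0.0662), so the numbers were not treated as pairs. Other settings were quantile normalization, median centring, added constants of 5 and 100, no filter, a filter at the 60th percentile, no variance trend, a replicate block, only the arrays of the groups compared, probe sets readable on all arrays, and each array left out.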

Additional observations from a re-analysis of the deposited data

Results flagged for a closer look

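For 5 members the change under JH III differed between exposure times by limma's test of the difference itself. At 12 h against 3 h, FASN1 gave -0.45 on the log2 scale (lower in both 12 h arrays than in both 3 h arrays), Acsl gave -0.45 and ATPCL gave -0.27. Of all probe sets tested 9.02% fell in this comparison. The Acsl call was lost in 5 of 17 other settings and the ATPCL call in 10 of 18. At 12 h against 6 h, FASN1 gave -0.85, Acsl -0.65, ACC -0.41, ATPCL -0.40 and AcCoAS -0.41, where Acsl and AcCoAS rest on 1 array at 6 h. In this comparison 7.37% of all probe sets tested fell. The ACC call was lost in 13 of 18 other settings and the AcCoAS call in 8 of 16. Acsl and ATPCL were each lost in 1 other setting, and both FASN1 calls held in all 18. Groups of 2 arrays allow no search for single arrays that stand apart.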

How the results depend on the processing

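Leaving out each array in turn gave 2 to 3 member probe sets past the threshold at 3 h, 2 to 5 at 6 h, 0 to 1 at 12 h, 0 to 0 for 6 h against 3 h, 1 to 3 for 12 h against 3 h and 2 to 5 for 12 h against 6 h. Over all probe sets the counts were 581 to 1777 (1572 with all arrays), 354 to 1313 (1133), 82 to 502 (496), 1 to 6 (5), 561 to 1380 (1383) and 452 to 996 (1200) in the same order.

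The member count at 3 h was 1 over probe sets readable on all arrays, a setting that leaves out Acsl, AcCoAS and bgm. Under that setting these genes could not be called in any comparison, so its lower counts do not bear on their calls. At 6 h it was 3 with quantile normalization, median centring, no variance trend or readable probe sets alone. At 12 h it was 0 with quantile normalization, no filter, no variance trend, a replicate block or only the arrays compared, and 2 with a filter at the 60th percentile. With median centring at 12 h SREBP was lost (adjusted p = 0.0954 by limma) and ATPCL passed instead, as lower (-0.40, adjusted p = 0.0197). For 12 h against 3 h the member count was 1 with quantile normalization or no trend. For 12 h against 6 h it was 3 with median centring, no filter, a replicate block, only the arrays compared or readable probe sets, and 2 with no trend.

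Over all probe sets, quantile normalization gave 516, 512 and 102 calls at 3, 6 and 12 h, 2 for 6 h against 3 h, and 518 and 614 for 12 h against 3 and 6 h. Without the variance trend the counts were 875, 472, 37, 2, 685 and 517. Readable probe sets alone gave 942 at 3 h, 284 at 12 h, 2 for 6 h against 3 h and 864 for 12 h against 3 h. Median centring gave 889 at 12 h. Only the arrays compared gave 301 at 12 h and 670 for 12 h against 6 h. For 6 h against 3 h the count was 2 with median centring or no filter, 15 with the 60th percentile, 1 with a replicate block and 0 with only the arrays compared. The cause was not tested.

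Values that changed sign did not pass the threshold with all arrays. With median centring ATPCL gave -0.162 at 3 h and -0.0348 at 6 h, AcCoAS -0.0782 at 3 h, the dimmer SCAP probe set -0.0790 at 3 h, FASN1 -0.00438 at 12 h, ACC -0.0852 at 12 h, and Desat1 -0.0929, -0.0324 and -0.110 at 3, 6 and 12 h. With quantile normalization the dimmer SCAP probe set gave -0.0664 at 3 h and -0.192 for 12 h against 6 h. With each array left out, ATPCL ranged from -0.0189 to 0.0190, Desat1 from -0.0140 to 0.152 and the dimmer SCAP probe set from -0.153 to 0.318 at 3 h, and bgm from -0.178 to 0.0276 at 6 h. At 12 h ACC ranged from -0.0659 to 0.147, AcCoAS from -0.114 to 0.0393, Desat1 from -0.0550 to 0.0866 and the brighter SCAP probe set from -0.193 to 0.133. For 6 h against 3 h Desat1 ranged from -0.0191 to 0.146 and the dimmer SCAP probe set from -0.00691 to 0.464. For 12 h against 3 h Desat1 ranged from -0.136 to 0.0298, SREBP from -0.00722 to 0.247 and bgm from -0.0381 to 0.159, and for 12 h against 6 h the dimmer SCAP probe set ranged from -0.0982 to 0.217.

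The pairing by replicate number was not borne out, and other member calls kept their side of the threshold with the block. Without JH III 6 h replicate 1, probe sets unreadable on the other 6 h array had no 6 h value. S1P and the dimmer ACC probe set were too dim to test.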
